A study of Homo sapiens with 10 samples.

Results

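The genes described here are 60 human genes whose products build ribosomes: subunits and factors of RNA polymerase I, proteins of small nucleolar ribonucleoproteins (snoRNPs), abundant nucleolar proteins, and assembly factors of the small (40S) and large (60S) ribosomal subunits. They were taken by symbol from the deposited table of 54628 symbols. All 60 were in the table, and all 60 passed the filter on low counts that left 20125 genes for testing. By role they comprise 8 RNA polymerase I genes, 7 snoRNP core proteins, 8 other nucleolar proteins, 16 factors of the small-subunit processome, 17 of pre-60S assembly and 4 of late 40S maturation.

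RNA was measured in NK-92 (NK92 in the labels), an established human line of natural killer lymphoma cells, kept in Artemis Medium-1 supplemented with human serum (2%). The treated groups were cells given the iron chelator deferoxamine (DFO) at 500 µM, and cells given PPMX-T003 (T003) at 10 µg/mL. T003 is an antibody to transferrin receptor 1, by which cells import iron carried on transferrin. Each agent was sampled at 6 h and 24 h, and untreated cells were collected at 0 h. No untreated library was taken at 6 h or 24 h, so time in culture cannot be told apart from treatment in a comparison with untreated cells. Each of these 5 groups had 2 libraries of polyadenylated RNA, which no label describes as separate cultures. The spread behind every p-value may therefore be technical. The comparisons ask whether transcripts of the ribosome-building machinery differed after iron was withheld by a chelator or by an antibody.

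A ribosome begins in the nucleolus, where RNA polymerase I copies ribosomal DNA into one long precursor RNA. Box C/D snoRNPs methylate that precursor and box H/ACA snoRNPs pseudouridylate it, while the small-subunit processome folds and cuts its 5′ part and pre-60S factors assemble the rest, before both particles leave for the cytoplasm. Growing lymphoid cells keep this pathway highly active, and the transcription factor MYC is known to act on many of its genes. The libraries hold polyadenylated RNA, so ribosomal RNA itself was not analysed here.

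Library totals ran from 107117892 to 143575614 estimated counts. All 10 markers of natural killer cells reached 1 CPM (counts scaled to library size) in these libraries, whereas none of 6 B-cell markers and none of 6 erythroid markers did, and MS4A1, CD79B, CD22, BLK, HBB and GYPB were at 0. Of 9 T-cell markers CD3G and CD8B were at 0 and TRAC, TRBC1 and TRDC alone reached 1 CPM, and of 7 myeloid markers CD68 alone did. Replicate 1 of DFO at 6 h stood apart from the rest on the second principal component (61.9, against -22.17 to 7.078 in the other libraries), and the main results that use the 6 h DFO libraries are also given without it.

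Levels are CPM scaled by TMM, a factor that balances library composition, and changes are log2 ratios. The members were abundant genes. The lowest, NPM3, a small relative of nucleophosmin, averaged 40.6 CPM over the 10 libraries, and 5425 of the 20125 tested genes were at or above that level. Per kilobase of the canonical transcript, NPM1 (nucleophosmin, a histone and ribosome chaperone) stood first in untreated cells at 1710 CPM per kb, followed by NCL (nucleolin) at 805 CPM per kb, FBL (fibrillarin, the box C/D methyltransferase) at 290.0 CPM per kb and NOP56, its partner in the particle, at 247 CPM per kb. At the low end were UTP20, WDR12 and UTP15, at 15.5, 15.4 and 11.6 CPM per kb. The SD of a member's log2 level within a group had a median of 0.0218, and the highest, 0.358, belonged to PPAN.

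Promoters of the members were read from RefSeq windows (GRCh38.p14) that run from 250 bases before to 50 bases after the annotated start, which 51 of the 60 members had. Some members had 2 windows, and a gene was counted as holding a motif if any of its windows did. The letters CACGTG are the E-box known to be bound by MYC with MAX and by related factors. They were found for 22 of these 51 members (43.1%). The share was 8.77% of all 27305 genes with a window and 11.7% of the 12572 that were also tested. The letters CGGAAGT contain the shorter GGAA core recognised by ETS-family factors. They were found for 19 members (37.3%), against 8.18% of all genes and 14.3% of tested genes. In all, 6 motifs were searched on both strands. The other 4 were TATAAA (2 members, 3.92%, against 14% of all and 9.35% of tested genes), CACGCG (17 members, 33.3%, against 13.5% and 20%), the BANP element (1 member, 1.96%, against 0.505% and 0.939%) and the ZNF143 element (0 members, against 0.289% and 0.541%). Both CACGTG and CGGAAGT were found in 11 members, CACGTG without CGGAAGT in 11, CGGAAGT without CACGTG in 8 and neither in 21. Of the 26 CACGTG matches, 21 lay between 31 bases before and 42 bases after the start. These bounds are the positions of the outermost of the 21 matches, so the count only describes them. Positions in other genes were not read. Matches were counted in each window, so a site in both windows of a member may count for each of them. These are matches of letters and say nothing of binding.

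The 120 bases just before the start are printed for 5 members, from far to near, with CACGTG and CGGAAGT (or its complement ACTTCCG) in capitals. UTP4 (chr16:69132529-69132648, plus strand) and NOP10 (chr15:34343137-34343256, minus strand) carry both motifs in this stretch. NOC3L (chr10:94362940-94363059, minus strand), the member with the largest change with T003 at 24 h, carries CGGAAGT on each strand here and its CACGTG after the start, outside the stretch. NOP16 (chr5:176388599-176388718, minus strand) and WDR3 (chr1:117929619-117929738, plus strand), which changed about as much, carry neither in the whole window. Both of their printed stretches do hold the shorter GGAA, so they are not without the letters of the ETS core.
UTP4: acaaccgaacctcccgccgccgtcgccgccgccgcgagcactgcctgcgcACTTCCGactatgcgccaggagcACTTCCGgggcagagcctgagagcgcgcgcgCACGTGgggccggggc
NOP10: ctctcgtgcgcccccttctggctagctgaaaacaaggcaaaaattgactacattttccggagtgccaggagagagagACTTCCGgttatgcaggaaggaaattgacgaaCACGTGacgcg
NOC3L: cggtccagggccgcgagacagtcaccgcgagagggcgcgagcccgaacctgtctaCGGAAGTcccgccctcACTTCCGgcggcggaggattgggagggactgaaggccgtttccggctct
NOP16: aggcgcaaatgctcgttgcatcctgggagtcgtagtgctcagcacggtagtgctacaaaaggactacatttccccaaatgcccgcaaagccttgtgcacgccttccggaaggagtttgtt
WDR3: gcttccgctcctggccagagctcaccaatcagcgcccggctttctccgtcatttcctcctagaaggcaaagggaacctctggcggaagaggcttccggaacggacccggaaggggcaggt

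At 24 h more members were called higher than lower against untreated cells with either agent. With DFO, 27 of the 60 were called higher and 1 was called lower, where called means an adjusted p under 0.05 in edgeR's quasi-likelihood test over all 20125 genes with Benjamini-Hochberg adjustment. The background was 3.43% of all genes called higher and 3.27% called lower, and, among the 5425 genes as abundant as the lowest member, 9.64% higher and 7.61% lower. With T003, 38 were called higher and 0 lower, where 7.1% of all genes and 19.4% of the equally abundant genes were called higher. The shares called lower were 5.44% and 11.2%. An unadjusted p under 0.05 in edgeR, in either direction, was reached by 44 members, 4882 of all genes and 2591 equally abundant ones. DESeq2 called 43 members higher and 1, UBTF, lower, and 1738 and 1191 of all genes in turn. Both libraries at 24 h stood above both untreated libraries for 53 members with DFO (24.2% of all genes and 37% of the equally abundant ones) and for 51 with T003 (25.9% and 42.5%). The 2 comparisons share the untreated libraries and are therefore given side by side, not as support for each other. The changes were small: the median log2 change of the members was 0.10 with DFO (range -0.11 to 0.26) and 0.13 with T003 (range -0.10 to 0.38), beside medians of 0.01 and 0.02 over the equally abundant genes.

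Library by library, the median log2 ratio of the members to the untreated mean was 0.0958 and 0.0979 after 24 h of DFO and 0.129 and 0.127 after 24 h of T003, against 0.0119 and -0.012 in the untreated libraries themselves. At 24 h, 58 and 56 members were above the untreated mean in the DFO libraries and 56 in each T003 library. Summed over members, the level was 16357 and 16161 CPM with DFO at 24 h and 16187 and 16223 CPM with T003, against 15312 and 15142 CPM in untreated cells. Both sums at 24 h lie above both untreated sums with either agent, and the libraries at 6 h, at 15228 to 15372 CPM, lie with the untreated ones. In bulk RNA such as this, a change in the share of cells that express a gene and a change in RNA per cell cannot be told apart.

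**Figure D1:**
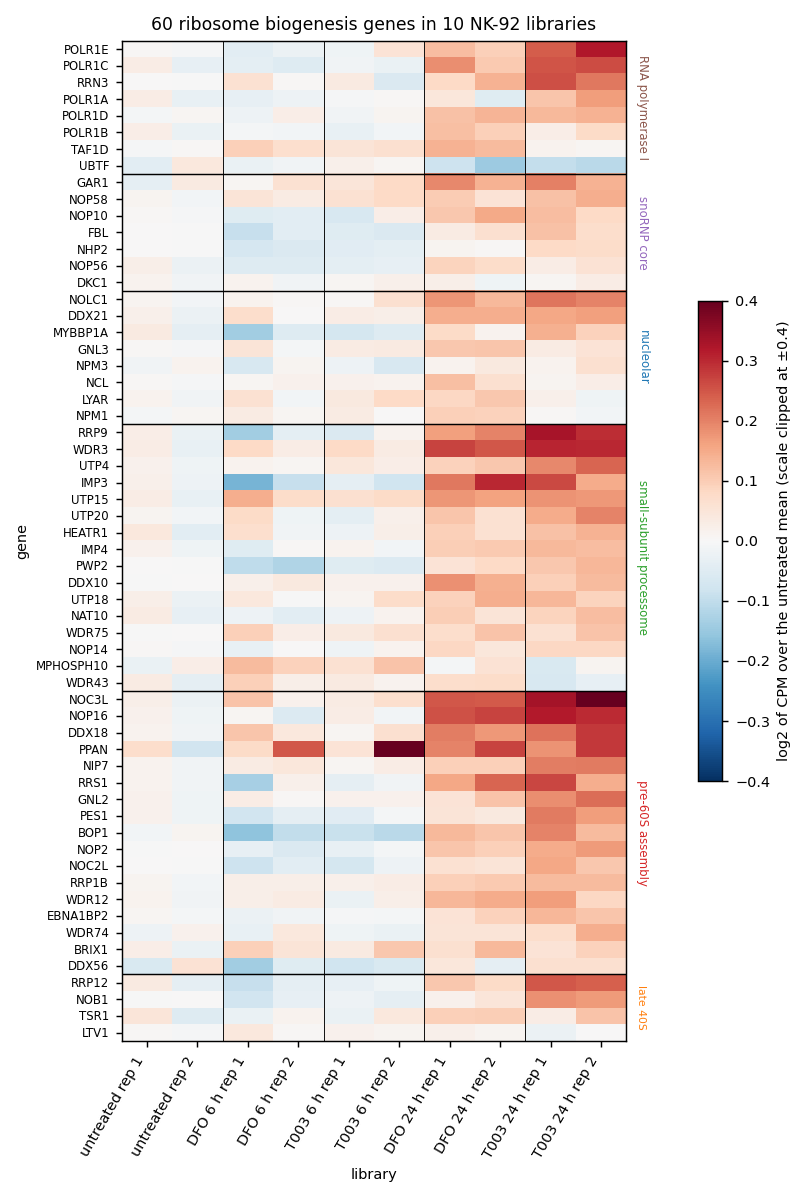
Heat map of the 60 members (rows, grouped by role) in the 10 libraries (columns), coloured by the log2 ratio of CPM to the untreated mean, red above and blue below, clipped at 0.4. The columns of the 4 libraries at 24 h are mostly red and the 6 other columns are pale, while UBTF is blue at 24 h.

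**Figure D2:**
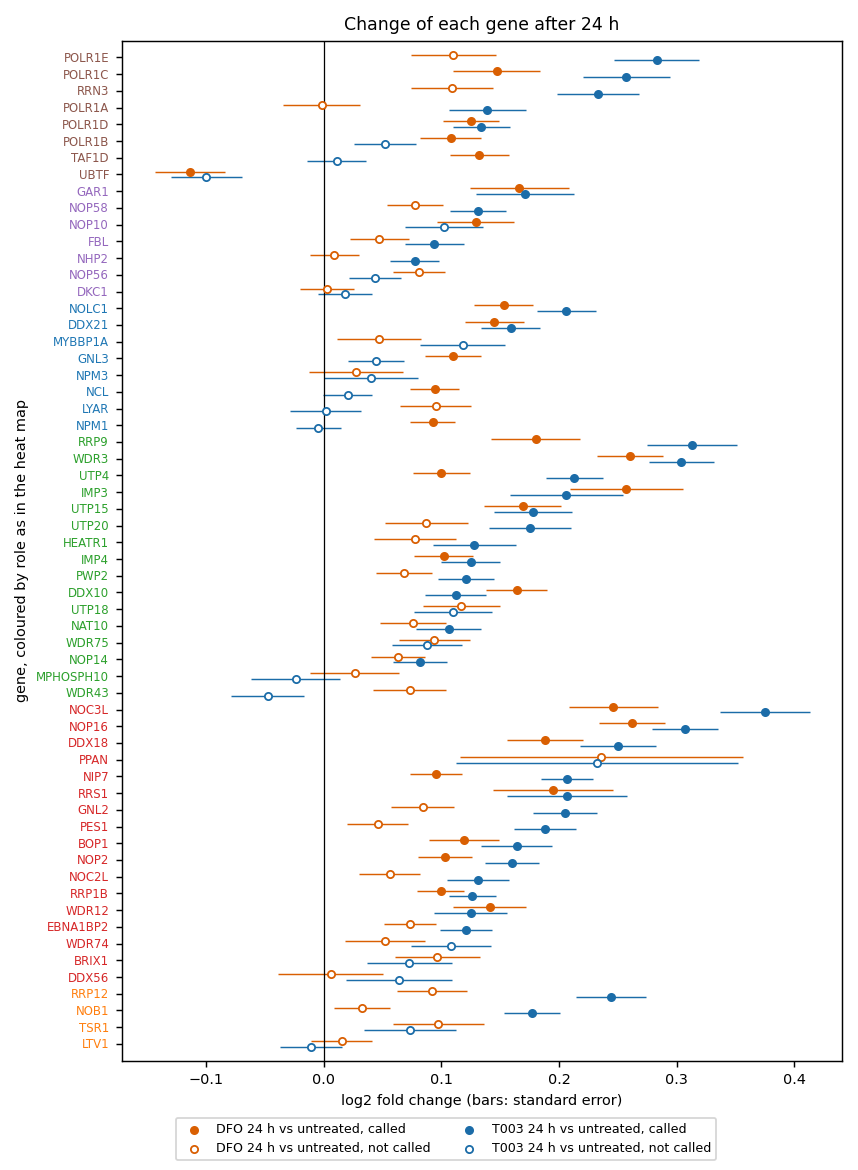
Log2 fold change of each member after 24 h against untreated cells, with standard errors as bars, DFO in orange and T003 in blue, and filled points for called changes. NOC3L, RRP9, NOP16 and WDR3 lie farthest to the right with T003, and UBTF lies left of 0 with both agents.

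How far these calls depend on single libraries differed between the agents. Counts over all genes moved with those of the members, from the same fits. Leaving out untreated replicate 2 left 4 members called higher with DFO (WDR3, DDX10, NOP16 and NOC3L; 196 of all genes, against 691 with every library) and 21 with T003 (663 of all genes, against 1429). Without untreated replicate 1 there were 12 with DFO and 30 with T003 (502 and 940 of all genes). With DFO, there were 10 and 9 without replicate 1 and replicate 2 of DFO at 24 h (393 and 256 of all genes). With T003, there were 24 and 28 without replicate 1 and replicate 2 of T003 at 24 h (706 and 800 of all genes). Those 4 genes were the members whose DFO call held without each of the 10 libraries in turn and under every other alternative run, and 20 of the 38 T003 calls held in the same way. Fitting the 2 compared groups alone gave 15 members higher with DFO and 35 with T003 (411 and 1290 of all genes), whereas DESeq2 gave 37 and 43 (1018 and 1738 of all genes).

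Genes of RNA polymerase I and its initiation factors came out as 4 higher and 1 lower of 8 with DFO and 5 higher and 0 lower with T003. POLR1C, a subunit shared with RNA polymerase III, rose with both. It had 56.6 and 53.5 CPM after 24 h of DFO and 59.3 and 59.6 CPM after 24 h of T003, against 50.8 and 48.7 CPM in untreated cells. POLR1C at 6 h had 48.4 and 48.0 CPM with DFO and 49.3 and 48.8 CPM with T003. Both 24 h pairs lie above the untreated pair, and the log2 change was 0.15 (SE 0.037, adjusted p = 0.0374) with DFO and 0.26 (SE 0.037, adjusted p = 0.00115) with T003. Leaving out any of 7 libraries ended the DFO call (highest adjusted p = 0.256), and none ended the T003 call (highest adjusted p = 0.0172).

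POLR1D, the other subunit shared with RNA polymerase III, had 179.9 and 182 CPM after 24 h of DFO and 182 and 183 CPM after 24 h of T003, against 165 and 167 CPM in untreated cells. POLR1D at 6 h had 164 and 169 CPM with DFO and 164 and 167 CPM with T003. The 24 h libraries do not overlap the others, and POLR1D rose by 0.13 (SE 0.024, adjusted p = 0.01) with DFO and 0.13 (SE 0.024, adjusted p = 0.00398) with T003. The DFO call ended without untreated replicate 1, untreated replicate 2 or replicate 2 of DFO at 24 h (highest adjusted p = 0.0908).

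POLR1E, the PAF53 subunit that helps the polymerase engage its promoter, was at 64.7 and 63.3 CPM after 24 h of DFO and 70.2 and 74.1 CPM after 24 h of T003, against 59.4 and 59.2 CPM in untreated cells. POLR1E at 6 h had 57.5 and 58.4 CPM with DFO and 58.6 and 61.6 CPM with T003. Every 24 h library is above both untreated libraries, with the T003 pair on top. The change with T003 was 0.28 (SE 0.036, adjusted p = 0.00058), a rise of 21.6%, and that with DFO was 0.11 (SE 0.036, adjusted p = 0.107), which did not pass. RRN3, the initiation factor TIF-IA that carries the polymerase to the promoter, was at 162 and 168 CPM after 24 h of DFO and 183 and 177 CPM after 24 h of T003, against 153 and 153 CPM in untreated cells. RRN3 at 6 h had 159.5 and 153 CPM with DFO and 157 and 147 CPM with T003. Its 24 h libraries are again above the others, and its change was 0.23 (SE 0.035, adjusted p = 0.00154) with T003 and 0.11 (SE 0.035, adjusted p = 0.103) with DFO, the second not called. Counts of its pseudogenes (RRN3P, 3 of 4 with counts) came to 19.8% to 23.9% of RRN3, so reads may be split between them. POLR1A, the largest subunit, rose with T003 (log2 change 0.14, SE 0.033, adjusted p = 0.0179) and had 0.00 (SE 0.033, adjusted p = 0.989) with DFO.

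POLR1B, the second-largest subunit, had 196 and 193 CPM after 24 h of DFO and 184 and 191 CPM after 24 h of T003, against 184 and 178 CPM in untreated cells. POLR1B at 6 h had 179.8 and 179.5 CPM with DFO and 177 and 179 CPM with T003. The DFO pair lies above the untreated pair, the T003 pair overlaps it, and the changes were 0.11 (SE 0.026, adjusted p = 0.034) with DFO and 0.05 (SE 0.026, adjusted p = 0.267) with T003. TAF1D, a subunit of the promoter selectivity factor SL1, was at 72.6 and 73.0 CPM in untreated cells. TAF1D at 6 h had 77.8 and 76.3 CPM with DFO and 75.4 and 76.0 CPM with T003, and at 24 h it had 80.1 and 79.5 CPM with DFO and 73.5 and 73.1 CPM with T003. The DFO libraries at 24 h are the highest of the 10, whereas the T003 libraries at 24 h are just above the untreated ones. Its change was 0.13 (SE 0.025, adjusted p = 0.0104) with DFO and 0.01 (SE 0.025, adjusted p = 0.871) with T003.

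UBTF, the HMG-box factor UBF that coats active ribosomal DNA, had lower values at 24 h. It was at 231 and 245 CPM in untreated cells. UBTF at 6 h had 234 and 236 CPM with DFO and 241 and 239 CPM with T003, and at 24 h it had 225 and 215 CPM with DFO and 223 and 221 CPM with T003. The 4 libraries at 24 h are the 4 lowest, and the untreated pair is wide. UBTF fell by 7.62% with DFO (log2 change -0.11, SE 0.030, adjusted p = 0.0467) and had -0.10 (SE 0.030, adjusted p = 0.0542) with T003, which did not pass. The DFO call ended without any of 9 of the 10 libraries (highest adjusted p = 0.409), with the fit of the compared groups alone and with the trend of GC content and length removed, and DESeq2 called UBTF lower with both agents. Exons of UBTF overlap the antisense gene ATXN7L3-AS1, and no source used here states whether counting used strand.

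Among the 7 snoRNP core proteins, 2 rose with DFO and 4 with T003. GAR1, of the H/ACA particle, had 43.7 and 42.1 CPM after 24 h of DFO and 43.9 and 42.1 CPM after 24 h of T003, against 37.3 and 39.1 CPM in untreated cells. GAR1 at 6 h had 38.4 and 39.9 CPM with DFO and 39.5 and 40.4 CPM with T003. Both 24 h pairs are above both untreated libraries, with log2 changes of 0.17 (SE 0.042, adjusted p = 0.0399) with DFO and 0.17 (SE 0.042, adjusted p = 0.0221) with T003. NOP10, also of the H/ACA particle, had 102 and 106 CPM after 24 h of DFO and 104 and 101 CPM after 24 h of T003, against 95.5 and 94.7 CPM in untreated cells. NOP10 at 6 h had 91.9 and 92.4 CPM with DFO and 91.0 and 97.0 CPM with T003. The 24 h libraries lie above the others, and the changes were 0.13 (SE 0.033, adjusted p = 0.0409) with DFO and 0.10 (SE 0.033, adjusted p = 0.0721) with T003, where it did not pass. Leaving out any of 8 libraries ended the DFO call of GAR1 (highest adjusted p = 0.234), any of 4 its T003 call (0.183) and any of 7 the DFO call of NOP10 (0.243).

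NOP58, a core protein of box C/D particles, had 244 and 236 CPM after 24 h of DFO and 247 and 251 CPM after 24 h of T003, against 229 and 226 CPM in untreated cells. NOP58 at 6 h had 236 and 233 CPM with DFO and 237 and 240.2 CPM with T003. Both 24 h pairs lie above the untreated pair. It rose with T003 (log2 change 0.13, SE 0.024, adjusted p = 0.00425) and had 0.08 (SE 0.024, adjusted p = 0.0845) with DFO. FBL had 334 and 341 CPM after 24 h of DFO and 354 and 343 CPM after 24 h of T003, against 327 and 326 CPM in untreated cells. FBL at 6 h had 306 and 317 CPM with DFO and 316 and 314 CPM with T003. Its 24 h pairs are above the untreated pair too. FBL rose with T003 (log2 change 0.09, SE 0.025, adjusted p = 0.0303), a call that ended without any of 6 libraries, while its DFO value was 0.05 (SE 0.025, adjusted p = 0.349). NOP56 had 502 and 497 CPM after 24 h of DFO and 482 and 492 CPM after 24 h of T003, against 479 and 465 CPM in untreated cells. NOP56 at 6 h had 455 and 456 CPM with DFO and 459.8 and 462 CPM with T003. Its 24 h pairs are also the higher ones, and its changes were 0.08 (SE 0.022, adjusted p = 0.0536) for DFO and 0.04 (SE 0.022, adjusted p = 0.262) for T003, neither called. NHP2, of the H/ACA particle, rose with T003 (log2 change 0.08, SE 0.021, adjusted p = 0.0324), and DKC1, its pseudouridine synthase, had changes of 0.00 and 0.02 (adjusted p = 0.98 with DFO and 0.717 with T003). Between the agents at 24 h, 0 of these 7 genes were called different by edgeR and 0 by DESeq2. An unadjusted p under 0.05 in edgeR was reached by 2 of them and by 1567 of the 5425 equally abundant genes.

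Of the 8 other nucleolar proteins, 5 rose with DFO (NOLC1, DDX21, NPM1, NCL and GNL3) and 2 with T003 (NOLC1 and DDX21). NOLC1, the snoRNP chaperone Nopp140, had 560.0 and 553 CPM in untreated cells. NOLC1 at 6 h had 562 and 558 CPM with DFO and 558 and 581 CPM with T003, and at 24 h it had 628 and 608 CPM with DFO and 645 and 639 CPM with T003. All 4 libraries at 24 h are above the 6 others, and the change against untreated cells was 0.15 (SE 0.025, adjusted p = 0.00416) with DFO and 0.21 (SE 0.025, adjusted p = 0.00042) with T003. DDX21, an RNA helicase that acts in the nucleolus, had 669.6 and 669 CPM after 24 h of DFO and 674 and 678 CPM after 24 h of T003, against 615 and 596 CPM in untreated cells. DDX21 at 6 h had 636 and 606 CPM with DFO and 618 and 616 CPM with T003. Its 24 h libraries do not overlap the others, and the changes were 0.14 (SE 0.025, adjusted p = 0.00661) with DFO and 0.16 (SE 0.025, adjusted p = 0.00222) with T003. The DFO calls of both NOLC1 and DDX21 ended without untreated replicate 2 (adjusted p = 0.0553 and 0.0692).

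NPM1 rose with DFO and was not called with T003. It had 2248 and 2274 CPM in untreated cells. NPM1 at 6 h had 2313 and 2273 CPM with DFO and 2312 and 2264 CPM with T003, and at 24 h it had 2413 and 2410 CPM with DFO and 2266 and 2242 CPM with T003. The DFO libraries at 24 h are the highest of the 10, and the T003 libraries at 24 h overlap the untreated ones. The change was 0.09 (SE 0.019, adjusted p = 0.0164) with DFO and 0.00 (SE 0.019, adjusted p = 0.936) with T003. NPM1 has 50 annotated pseudogenes, 40 of which had counts, and these came to 3.3% to 3.55% of NPM1 itself. NCL rose with DFO (log2 change 0.09, SE 0.021, adjusted p = 0.0225, and log2 change 0.02, SE 0.021, adjusted p = 0.651 with T003), as did GNL3, the nucleolar GTPase nucleostemin (log2 change 0.11, SE 0.024, adjusted p = 0.0215, and log2 change 0.04, SE 0.024, adjusted p = 0.313 with T003). MYBBP1A, a nucleolar MYB-binding protein, had 175 and 167 CPM after 24 h of DFO and 183 and 177 CPM after 24 h of T003, against 169.6 and 162 CPM in untreated cells. MYBBP1A at 6 h had 150.2 and 159.8 CPM with DFO and 158 and 159.8 CPM with T003. Its changes were 0.05 (SE 0.036, adjusted p = 0.573) for DFO and 0.12 (SE 0.036, adjusted p = 0.0583) for T003, neither called, its DFO pair overlapping untreated cells and its T003 pair above them. LYAR and NPM3 were called with neither agent.

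**Figure D3:**
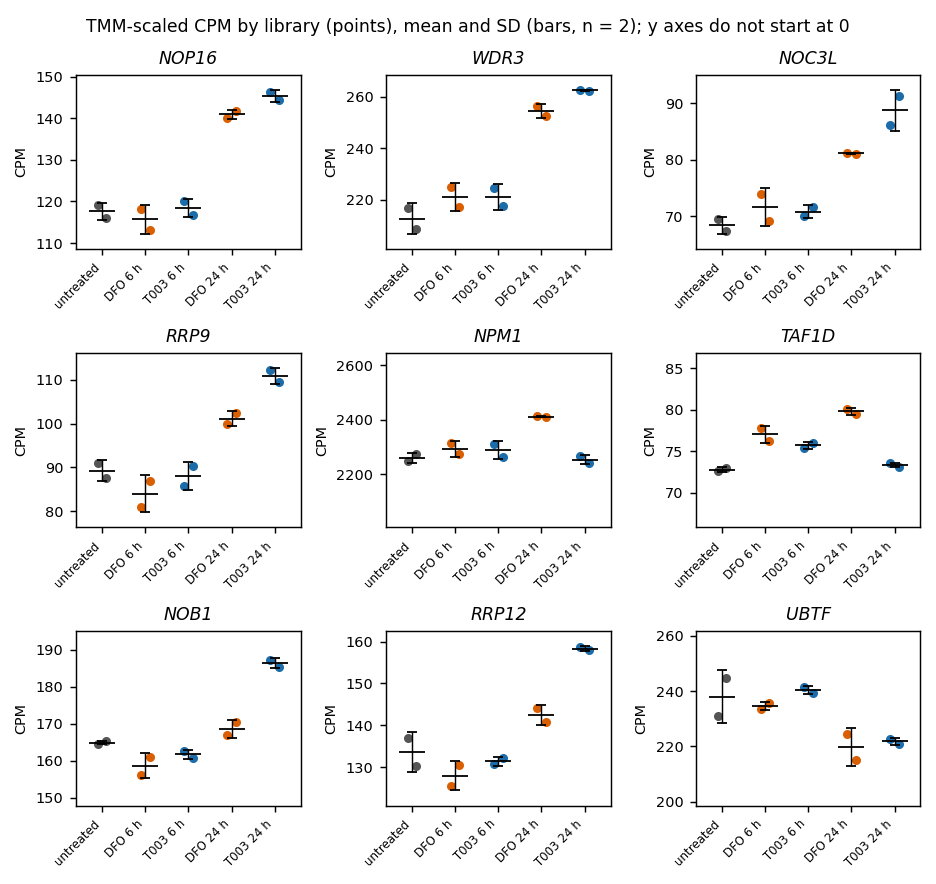
TMM-scaled CPM of 9 members in each library (points), with the mean and SD of each group (bars, n = 2); the vertical axes do not start at 0. NOP16, WDR3, NOC3L and RRP9 are higher in both 24 h groups than in untreated cells, NPM1 and TAF1D are highest after 24 h of DFO, NOB1 and RRP12 are highest after 24 h of T003, and UBTF is lowest in the 24 h groups.

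The small-subunit processome had 7 of 16 members higher with DFO and 12 of 16 with T003, and none called lower with either by edgeR or by DESeq2. WDR3, a subunit of the UTP-B complex (chromosome 1, 117929739 to 117966543, GRCh38.p14), had 217 and 208 CPM in untreated cells. WDR3 at 6 h had 225 and 217 CPM with DFO and 225 and 218 CPM with T003, and at 24 h it had 257 and 253 CPM with DFO and 263 and 262 CPM with T003. The 4 libraries at 24 h lie above the 6 others. WDR3 rose by 19.8% with DFO (log2 change 0.26, SE 0.028, adjusted p = 0.00029) and by 23.5% with T003 (log2 change 0.30, SE 0.028, adjusted p = 7.36e-05), and both calls held without each library in turn (highest adjusted p = 0.00333 and 0.00139). Its exons overlap those of SPAG17 on the other strand.

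RRP9, the protein specific to the U3 snoRNP (chromosome 3, 51933429 to 51941904), had 90.9 and 87.7 CPM in untreated cells. RRP9 at 6 h had 81.0 and 87.0 CPM with DFO and 85.8 and 90.2 CPM with T003, and at 24 h it had 99.95 and 102 CPM with DFO and 112 and 109.6 CPM with T003. The 24 h libraries are again the 4 highest, the T003 pair above the DFO pair. It rose by 0.18 (SE 0.038, adjusted p = 0.0179) with DFO and 0.31 (SE 0.038, adjusted p = 0.000467) with T003. The DFO call ended without untreated replicate 2 or either library of DFO at 24 h (highest adjusted p = 0.173). UTP4, a subunit of UTP-A, the complex that binds the precursor RNA first, had 176 and 178 CPM after 24 h of DFO and 188 and 194 CPM after 24 h of T003, against 167 and 163 CPM in untreated cells. UTP4 at 6 h had 167 and 166 CPM with DFO and 170.3 and 168 CPM with T003. The T003 pair lies above the DFO pair and both above untreated cells, with changes of 0.10 (SE 0.024, adjusted p = 0.0309) with DFO and 0.21 (SE 0.024, adjusted p = 0.000263) with T003. The DFO call of UTP4 ended without any of 5 libraries (highest adjusted p = 0.21).

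DDX10, an RNA helicase of the 40S pathway, had 89.4 and 86.9 CPM after 24 h of DFO and 84.1 and 85.9 CPM after 24 h of T003, against 78.6 and 78.8 CPM in untreated cells. DDX10 at 6 h had 79.8 and 80.8 CPM with DFO and 79.7 and 79.6 CPM with T003. Here the DFO pair is the higher one, and the changes were 0.16 (SE 0.026, adjusted p = 0.00397) with DFO and 0.11 (SE 0.026, adjusted p = 0.0179) with T003. The DFO call held without each library in turn (highest adjusted p = 0.0367), whereas the T003 call ended without either untreated library or either T003 library at 24 h (highest adjusted p = 0.122). IMP3, which joins MPHOSPH10 and IMP4 at the U3 snoRNA, had 59.3 and 57.7 CPM in untreated cells. IMP3 at 6 h had 51.5 and 54.9 CPM with DFO and 57.1 and 55.4 CPM with T003, and at 24 h it had 67.7 and 72.1 CPM with DFO and 70.2 and 64.8 CPM with T003. All 24 h libraries are above the rest, and those of DFO at 6 h are the 2 lowest. Its change was 0.26 (SE 0.048, adjusted p = 0.00893) with DFO and 0.21 (SE 0.048, adjusted p = 0.0165) with T003, and the calls ended without 2 and 3 libraries (highest adjusted p = 0.0903 with DFO and 0.161 with T003).

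Of the other processome members, UTP15, a partner of UTP4, and IMP4 also rose with both agents (0.17 and 0.18 for UTP15, 0.10 and 0.13 for IMP4, DFO and T003 in turn). HEATR1, UTP20, PWP2, NAT10 (the acetyltransferase of 18S ribosomal RNA) and NOP14 rose with T003, by 0.08 to 0.17, and had values of 0.06 to 0.09 with DFO that did not pass. UTP18 and WDR75 had 0.12 and 0.09 with DFO and 0.11 and 0.09 with T003 without passing. MPHOSPH10 and WDR43 had 0.03 and 0.07 with DFO and -0.02 and -0.05 with T003, not called. MPHOSPH10 pseudogenes held counts of 4.02% to 5.52% of the gene.

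Pre-60S assembly factors had 9 of 17 members higher with DFO and 13 of 17 with T003, with none called lower by edgeR or by DESeq2. NOC3L, which moves pre-60S particles through the nucleus, showed the largest change among the 60 members with T003 (chromosome 10, 94314907 to 94362939). It had 69.5 and 67.3 CPM in untreated cells. NOC3L at 6 h had 74.0 and 69.2 CPM with DFO and 70.0 and 71.6 CPM with T003, and at 24 h it had 81.2 and 81.1 CPM with DFO and 86.2 and 91.3 CPM with T003. All 4 libraries at 24 h are above the 6 others, and NOC3L rose by 18.6% with DFO (log2 change 0.25, SE 0.038, adjusted p = 0.00322) and 29.7% with T003 (log2 change 0.38, SE 0.038, adjusted p = 0.000141). Both calls held without each library in turn (highest adjusted p = 0.0398 and 0.00271).

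NOP16 (chromosome 5, 176383946 to 176388598) had 119 and 116 CPM in untreated cells. NOP16 at 6 h had 118 and 113 CPM with DFO and 120.0 and 117 CPM with T003, and at 24 h it had 140.2 and 142 CPM with DFO and 146 and 144 CPM with T003. Its 24 h libraries do not overlap the others, with a rise of 19.9% with DFO (log2 change 0.26, SE 0.028, adjusted p = 0.000309) and 23.8% with T003 (log2 change 0.31, SE 0.028, adjusted p = 7.46e-05). Both calls held without each library in turn (highest adjusted p = 0.00408 and 0.00149). Exons of NOP16 overlap ARL10 and HIGD2A on the other strand. Such overlaps, which leave a count uncertain without a known strand setting, were annotated for 21 of the 60 members: POLR1C, UBTF, TAF1D, NHP2, GNL3, MYBBP1A, NOP14, WDR3, UTP15, IMP3, HEATR1, NOP16, GNL2, PES1, WDR12, WDR74, NIP7, EBNA1BP2, NOC2L, NOB1 and TSR1. DDX18, an RNA helicase, had 206 and 202 CPM after 24 h of DFO and 208 and 218 CPM after 24 h of T003, against 181 and 177 CPM in untreated cells. DDX18 at 6 h had 193 and 184 CPM with DFO and 180.1 and 187 CPM with T003. All 4 libraries at 24 h lie above the others, and DDX18 rose by 0.19 (SE 0.032, adjusted p = 0.00591) and 0.25 (SE 0.032, adjusted p = 0.000665) with DFO and T003 in turn, the DFO call ending without untreated replicate 2 (adjusted p = 0.0622).

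NIP7, which acts late in pre-60S processing, had 145 and 146 CPM after 24 h of DFO and 157 and 157 CPM after 24 h of T003, against 137 and 135 CPM in untreated cells. NIP7 at 6 h had 139 and 140.4 CPM with DFO and 137 and 139 CPM with T003. The T003 pair at 24 h is the highest and the DFO pair at 24 h comes next, with changes of 0.10 (SE 0.022, adjusted p = 0.0281) with DFO and 0.21 (SE 0.022, adjusted p = 0.000202) with T003. PES1, of the PeBoW complex with BOP1 and WDR12, had 213 and 212 CPM after 24 h of DFO and 238 and 231 CPM after 24 h of T003, against 208 and 204 CPM in untreated cells. PES1 at 6 h had 195 and 201 CPM with DFO and 199.6 and 205 CPM with T003. Its T003 pair stands clear of the rest and its DFO pair is just above the untreated one, with 0.19 (SE 0.026, adjusted p = 0.000911) for T003 and 0.05 (SE 0.026, adjusted p = 0.394) for DFO, the second not called. BOP1 rose by 0.12 and 0.16 and WDR12 by 0.14 and 0.13 with DFO and T003 in turn, so that the complex had 2 of 3 genes called with DFO and 3 of 3 with T003. The DFO calls of NIP7, BOP1 and WDR12 ended without 4, 6 and 4 libraries (highest adjusted p = 0.199, 0.176 and 0.171).

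NOP2, the cytosine methyltransferase of 28S ribosomal RNA, RRP1B and RRS1 rose with both agents, by 0.10 to 0.19 with DFO and by 0.13 to 0.21 with T003. GNL2, a GTPase of nuclear pre-60S particles, NOC2L and EBNA1BP2 were called higher with T003 (0.12 to 0.21) and had 0.06 to 0.08 with DFO, not called, and the difference between the agents was not called for any of the 3 by edgeR, while DESeq2 called GNL2 and NOC2L lower with DFO. WDR74, BRIX1, DDX56 and PPAN were called with neither agent at 24 h. PPAN cannot be read on its own, because the read-through gene PPAN-P2RY11 shares its exons and was counted at 60.2% to 150% of it. PPAN and the read-through gene together came to 206 and 207 CPM after 24 h of DFO and 230.0 and 220.3 CPM after 24 h of T003, against 198 and 197.5 CPM in untreated cells. At 6 h the sums were 180.7 and 194.4 CPM with DFO and 194.2 and 196.7 CPM with T003. The sums at 24 h all lie above the untreated ones and those at 6 h below them.

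Of the 4 late 40S factors, 0 were called with DFO in edgeR (2 had an unadjusted p under 0.05, and DESeq2 called 1) and 2 rose with T003. With DFO, 2075 of the 5425 equally abundant genes had an unadjusted p under 0.05 in edgeR, and DESeq2 called 1867 of all genes. RRP12, an export factor, had 137 and 130.3 CPM in untreated cells. RRP12 at 6 h had 126 and 130.5 CPM with DFO and 131 and 132 CPM with T003, and at 24 h it had 144 and 141 CPM with DFO and 159 and 158 CPM with T003. The T003 libraries at 24 h are the highest and the DFO libraries at 24 h come next, above all the rest. Its change was 0.24 (SE 0.030, adjusted p = 0.000467) with T003 and 0.09 (SE 0.030, adjusted p = 0.107) with DFO. NOB1, the endonuclease that makes the mature end of 18S ribosomal RNA, had 165 and 165 CPM in untreated cells. NOB1 at 6 h had 156 and 161 CPM with DFO and 163 and 161 CPM with T003, and at 24 h it had 167 and 170.4 CPM with DFO and 187 and 186 CPM with T003. The T003 libraries at 24 h are again the highest and those of DFO at 24 h lie just above the rest, with 0.18 (SE 0.024, adjusted p = 0.000809) for T003 and 0.03 (SE 0.024, adjusted p = 0.543) for DFO. TSR1 had 127 and 127 CPM after 24 h of DFO and 121 and 128 CPM after 24 h of T003, against 123 and 114 CPM in untreated cells. TSR1 at 6 h had 116 and 119.7 CPM with DFO and 116 and 122 CPM with T003. Its T003 pair overlaps untreated cells, and its changes were 0.10 (SE 0.039, adjusted p = 0.198) for DFO and 0.07 (SE 0.039, adjusted p = 0.297) for T003. LTV1 had 0.02 and -0.01, and neither gene was called.

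At 6 h no member was called with either agent. Of all genes, 0.0149% were called higher and 0.00994% lower after 6 h of DFO, and 0.0248% higher and 0.00497% lower after 6 h of T003. An unadjusted p under 0.05 was reached in edgeR by 14 members with DFO and 5 with T003. It was reached by 1510 and 708 of the 5425 equally abundant genes, and by 2494 and 1516 of all 20125 genes. DESeq2 called 2 members lower with DFO, BOP1 and PWP2, and 0 with T003. Of all genes DESeq2 called 280 lower with DFO and 24 lower with T003. BOP1 had 144 and 146 CPM in untreated cells. BOP1 at 6 h had 129.6 and 136 CPM with DFO and 136 and 135 CPM with T003, and at 24 h it had 159 and 156 CPM with DFO and 167 and 158 CPM with T003. Its 4 libraries at 6 h are the 4 lowest and its 4 at 24 h the 4 highest, with values at 6 h of -0.13 (SE 0.030, adjusted p = 0.185) for DFO and -0.10 (SE 0.030, adjusted p = 0.51) for T003. PWP2, a UTP-B subunit, had 98.7 and 98.6 CPM in untreated cells. PWP2 at 6 h had 92.1 and 90.8 CPM with DFO and 95.5 and 95.1 CPM with T003, and at 24 h it had 102 and 104 CPM with DFO and 106 and 108 CPM with T003, in the same order of times. Its values at 6 h were -0.11 (SE 0.025, adjusted p = 0.184) for DFO and -0.05 (SE 0.024, adjusted p = 0.681) for T003. The medians of the 60 members at 6 h were 0.00 with DFO and 0.01 with T003. Without replicate 1 of DFO at 6 h, 3 members had an unadjusted p under 0.05 with DFO and the median was 0.00. BOP1 then had -0.10 (SE 0.033, adjusted p = 0.777 in edgeR) and PWP2 -0.12 (SE 0.030, adjusted p = 0.777).

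Between 6 h and 24 h within an agent, the comparison has no untreated library in it. Time in culture cannot be told apart from time with the agent there either. After DFO, 33 members were called higher at 24 h than at 6 h and 0 lower. The background was 5.29% higher and 4.6% lower of all genes, and 14.1% and 9.82% of the equally abundant ones. An unadjusted p under 0.05 in edgeR, in either direction, was reached by 45 members, 4565 of all genes and 2396 equally abundant ones. DESeq2 called 37 members higher and 1, UBTF, lower, and 1406 and 1127 of all genes in turn. After T003, 39 were higher and 1, UBTF, was lower (7.55% and 5.93% of all genes, 19.9% and 12.6% of the equally abundant ones). The medians were 0.10 with DFO and 0.13 with T003. Without replicate 1 of DFO at 6 h, the library that stood apart, the DFO count was 14 (503 of all genes, against 1065 with every library), and without replicate 2 it was 25 (1037). It was 15 and 13 without replicate 1 and replicate 2 of DFO at 24 h (627 and 521 of all genes). The T003 count was lowest, 24, without replicate 1 of T003 at 6 h (663 of all genes, against 1520). Calls of 9 members with DFO (NOP56, NOLC1, WDR3, PWP2, IMP3, RRP9, NOP2, NOP16 and BOP1) and of 22 with T003 held without each library in turn.

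IMP3 had the largest change after DFO, 0.39 (SE 0.048, adjusted p = 0.000439), with 0.26 (SE 0.048, adjusted p = 0.00399) after T003. NOP16 had 0.29 (SE 0.028, adjusted p = 0.000117) after DFO and 0.30 (SE 0.028, adjusted p = 7.33e-05) after T003, and RRP9 0.27 (SE 0.039, adjusted p = 0.0014) and 0.33 (SE 0.039, adjusted p = 0.000257) in the same order. BOP1 rose by 0.25 (SE 0.030, adjusted p = 0.000438) after DFO and 0.26 (SE 0.030, adjusted p = 0.000256) after T003. UBTF fell after T003 (log2 change -0.11, SE 0.030, adjusted p = 0.0275), a call that ended without any of the 4 libraries compared, and had -0.09 (SE 0.030, adjusted p = 0.0782) after DFO. Without replicate 1 of DFO at 6 h, the changes after DFO were 0.35 for IMP3 (adjusted p = 0.00574 in edgeR), 0.32 for NOP16 (0.000382), 0.22 for RRP9 (0.0145), 0.22 for BOP1 (0.00483) and -0.10 for UBTF (0.205). These 2 time comparisons share no library, but both span the same time in culture. Over the 60 members the log2 changes of both correlated with Pearson's r = 0.735 and Spearman's rho = 0.675, as a description across genes that share libraries and are no independent replicates, and r was 0.778 over the 5365 equally abundant genes that are no members. Both changes were above 0 for 52 members and below 0 for 3. The 5 that differed in sign, LYAR, NPM1, PPAN, TAF1D and WDR43, were above 0 after DFO and below 0 after T003. Without replicate 1 of DFO at 6 h, r was 0.722, and 51, 3 and 6 members were above 0 in both, below 0 in both and of differing sign. The 29 members called higher in both make up 29 of the 33 called after DFO and 29 of the 39 called after T003. Those called after DFO alone were GNL3, NCL, NPM1 and POLR1B. Of the 5425 equally abundant genes, 3055 were above 0 after DFO and 3099 after T003. How many of these were above 0 in both, or called in both, was not counted. The overlap is therefore not shown to be particular to the members.

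**Figure D4:**
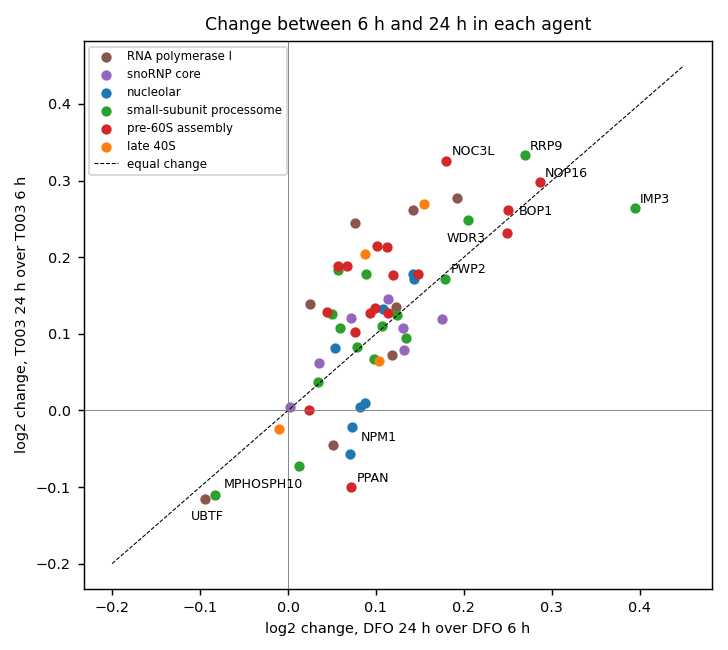
Log2 change between 6 h and 24 h for each of the 60 members, DFO on the horizontal axis and T003 on the vertical axis, coloured by role, with a dashed line for equal change. Most points lie above 0 on both axes, and LYAR, NPM1, PPAN, TAF1D and WDR43 lie above 0 on the DFO axis and below 0 on the T003 axis.

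Set directly against each other at 24 h, the agents differed for 8 of 60 members, where 1.34% of all genes and 4.31% of the equally abundant genes were called. With DFO, TAF1D (log2 change 0.12, SE 0.025, adjusted p = 0.0473) and NPM1 (log2 change 0.10, SE 0.019, adjusted p = 0.0409) were higher than with T003. With DFO, POLR1E (log2 change -0.17, SE 0.036, adjusted p = 0.0471), UTP4 (log2 change -0.11, SE 0.024, adjusted p = 0.0497), PES1 (log2 change -0.14, SE 0.026, adjusted p = 0.0313), NIP7 (log2 change -0.11, SE 0.022, adjusted p = 0.0416), RRP12 (log2 change -0.15, SE 0.030, adjusted p = 0.0387) and NOB1 (log2 change -0.14, SE 0.024, adjusted p = 0.0217) were lower. The 2 libraries of each agent do not overlap in any of the 8, which is no added support, since the same libraries singled them out. Both DFO libraries lay above both T003 libraries for 1325 of the 5425 equally abundant genes, and below them for 1841. Of all 20125 genes, 4306 lay above and 4525 below in this way. The median over the 60 members was -0.03, with 19 positive and 41 negative, beside -0.01 over the equally abundant genes.

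All 8 calls are close to the threshold. Leaving out libraries ended each of them at least 6 times in 10 (highest adjusted p between 0.166 for NOB1 and 0.31 for UTP4), the fit of the 2 groups alone called 0 members, and DESeq2 called 5 higher and 12 lower. Removing the trend with GC content and length ended the calls of TAF1D and NPM1, the members higher with DFO, and NCL was then the 1 member called higher, with 8 lower. The test of whether the change from 6 h to 24 h differed between the agents called 0 members in edgeR (background 0.0199% of all genes). In it, 16 members, 1851 of all genes and 872 equally abundant ones had an unadjusted p under 0.05 in edgeR. DESeq2 called 3 members for it, namely NPM1, NIP7 and RRN3, and 188 of all genes. At 6 h the agents differed for 0 members in edgeR and 0 in DESeq2 (background 0% of genes in edgeR and 14 genes in DESeq2). In edgeR 1 member had an unadjusted p under 0.05, as had 513 of the equally abundant genes. For members not called at 24 h, the SE of the difference between agents, with a median of 0.0291, limits what could be seen, and a missed threshold does not show that the agents acted alike.

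Members that host small nucleolar RNAs in their introns were a group of 9: TAF1D, NOP56, NOP58, GNL3, NCL, WDR43, DKC1, PPAN and TSR1, with 33 named snoRNA or scaRNA genes between them, 8 of these inside TAF1D. The split was made with results known and gets no test. In DFO against T003 at 24 h, their median was 0.04 (7 of 9 positive), and that of the other 51 members -0.05 (12 positive). Against untreated cells, 3 of the 9 hosts and 24 of the 51 others were called higher with DFO (medians 0.09 and 0.10), and 1 of the 9 and 37 of the 51 with T003 (medians 0.04 and 0.13).

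The letters in the promoters were set beside the changes in the same way. Of the 22 members with CACGTG, 9 were called higher with DFO and 15 with T003 (medians 0.09 and 0.12), and of the 29 members with a window but no CACGTG, 13 with DFO and 15 with T003 (medians 0.10 and 0.11). With CGGAAGT, 9 of 19 were called higher with DFO and 12 of 19 with T003 (medians 0.10 and 0.13), against 13 and 18 of the 32 without it (medians 0.09 and 0.10). NOP16 and WDR3, whose printed promoters hold CGGAAG but neither CACGTG nor CGGAAGT, rose about as much as NOC3L with DFO and less with T003. The window of NOC3L holds CACGTG and CGGAAGT. The part of these letters in the changes was not tested. MYC itself rose by 0.24 (SE 0.042, adjusted p = 0.00639) with DFO and 0.38 (SE 0.042, adjusted p = 0.000251) with T003 at 24 h, and MAX had 0.12 and 0.08, not called.

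Other genes of the pathway were read from lists that leave out the members. Of 76 further biogenesis factors tested, 15 rose and 1 fell with DFO and 41 rose and 1 fell with T003 (medians 0.06 and 0.12). Among genes as abundant as the lowest member, 9.64% rose with DFO and 19.4% with T003, and of all genes 3.43% and 7.1%. MAK16, a pre-60S factor, had 191 and 194 CPM after 24 h of DFO and 189 and 196 CPM after 24 h of T003, against 161 and 163 CPM in untreated cells, and rose by 0.25 (SE 0.029, adjusted p = 0.000532) with DFO and 0.24 (SE 0.029, adjusted p = 0.000402) with T003. SPATA5, an ATPase of pre-60S maturation, rose by 0.29 (SE 0.038, adjusted p = 0.00106) and 0.26 (SE 0.038, adjusted p = 0.00126) in the same order, and GTPBP4, a pre-60S GTPase, by 0.14 (SE 0.025, adjusted p = 0.00778) and 0.21 (SE 0.025, adjusted p = 0.000387). Of 12 other RNA polymerase I genes, 2 rose with DFO and 3 with T003. POLR1G, the partner of POLR1E, rose by 0.39 (SE 0.038, adjusted p = 0.000167) with DFO and 0.34 (SE 0.038, adjusted p = 0.000264) with T003, more than any of the 60 members with DFO.

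Ribosomal protein genes had medians just below 0. Of 79 tested, 1 rose and 3 fell with DFO and 1 rose and 8 fell with T003, with medians of -0.01 and -0.03. Among genes as abundant as the lowest member, 9.64% rose and 7.61% fell with DFO, and 19.4% and 11.2% with T003. Of all genes, 3.27% fell with DFO and 5.44% with T003. The shares of ribosomal protein genes that fell, 3.8% and 10.1%, are below those of the equally abundant genes. Changes of ribosomal protein genes were below 0 for 46 with DFO and 63 with T003. At 6 h they were below 0 for 75 genes with DFO and 71 with T003 (medians -0.05 and -0.04), with 0 called by edgeR. RPL5, which brings 5S ribosomal RNA to the 60S subunit, rose by 0.09 (SE 0.020, adjusted p = 0.0279) with DFO and 0.07 (SE 0.020, adjusted p = 0.0361) with T003. RPLP1 and RPLP2, proteins of the 60S stalk, were lower at 24 h than in untreated cells with both agents. Mean RPLP1 was 1131 CPM in untreated cells, 1062 and 1071 CPM at 6 h, and 1048 and 1047 CPM at 24 h, DFO and T003 in turn. Mean RPLP2 was 524.2 CPM, then 487.3 and 495.9 CPM, then 474.3 and 469.0 CPM in the same order. RPLP1 had -0.11 (SE 0.022, adjusted p = 0.0133) with DFO and -0.11 (SE 0.022, adjusted p = 0.00699) with T003, and RPLP2 had -0.14 (SE 0.026, adjusted p = 0.00835) and -0.16 (SE 0.026, adjusted p = 0.00261) in the same order. Ribosomal protein genes have many processed copies, so their counts are uncertain. Among 4 ribosome factors that bind iron or use it as a cofactor, OGFOD1, a hydroxylase of the ribosomal protein S23, rose by 0.09 (SE 0.021, adjusted p = 0.0219) with DFO and 0.20 (SE 0.021, adjusted p = 0.000157) with T003, and ABCE1, the iron-sulfur ATPase that recycles ribosomes, had 0.08 and 0.03, not called, as RIOX1 (0.08 and 0.08) and RIOX2 (0.09 and -0.02).

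**Figure D5:**
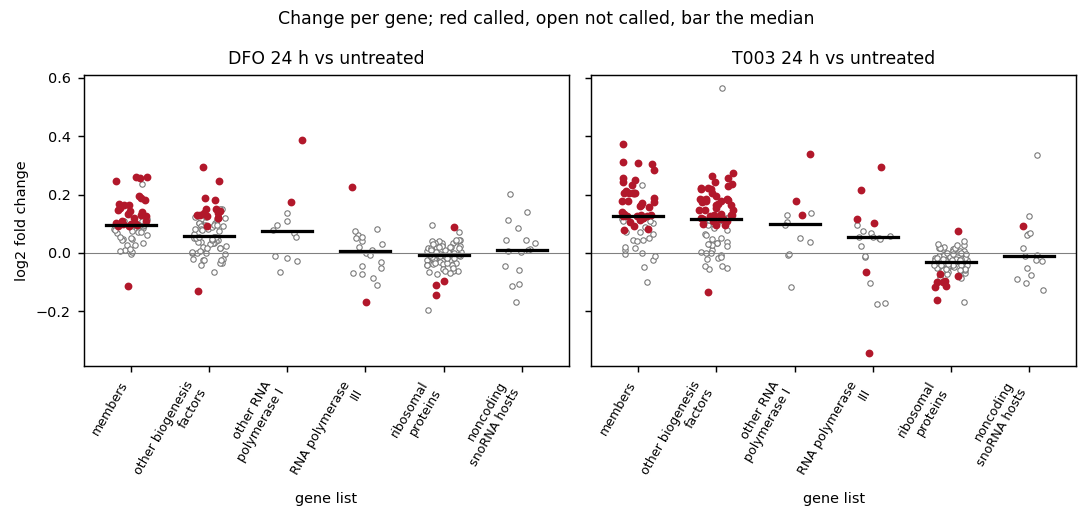
Log2 change against untreated cells after 24 h of DFO (left) and T003 (right) for the 60 members and 5 other gene lists, 1 point per gene, red where called, with a bar at the median. The members and the other biogenesis factors have medians above 0 in both panels, and ribosomal proteins have medians just below 0.

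Cell cycle genes and natural killer markers were read beside the members. As background, 9.64% of the genes as abundant as the lowest member were called higher and 7.61% lower with DFO at 24 h. With T003 these shares were 19.4% and 11.2%. Of all genes, 3.43% were called higher and 3.27% lower with DFO, and 7.1% and 5.44% with T003. Summed over 12 genes of the G2 phase and mitosis, the level was 3489 to 3630 CPM after 24 h of DFO and 3397 to 3475 CPM after 24 h of T003, against 3854 to 3916 CPM in untreated cells, with 2 of 12 genes called lower with DFO and 5 with T003 and medians of -0.06 and -0.09. CENPF, a kinetochore protein, fell by 0.60 with DFO (mean 288.9 CPM, against 437.6 CPM in untreated cells) and 0.65 with T003 (278.7 CPM). BUB1, a spindle checkpoint kinase, fell by 0.44 with DFO (192.7 CPM, against 261.2 CPM) and 0.59 with T003 (173.0 CPM). Summed over 12 genes of the S phase it was 4655 to 4688 CPM with DFO and 4817 to 4819 CPM with T003, against 4647 to 4710 CPM in untreated cells, with 0 higher and 1 lower of 12 with DFO and 4 higher and 1 lower with T003. The DFO sums lie inside the untreated ones. The sum of 10 natural killer markers was 3490 to 3523 CPM with DFO and 3714 to 3755 CPM with T003 at 24 h, against 3340 to 3391 CPM untreated. The single markers were mixed, with 5 changes above 0 and 5 below 0 with each agent and medians of 0.02 and -0.01. With DFO 3 were called higher and 2 lower, and with T003 4 higher and 2 lower. The part of these values in the change of the 60 members was not tested. With 12 members (BRIX1, DDX56, DKC1, LTV1, LYAR, MPHOSPH10, NPM3, PPAN, TSR1, UTP18, WDR43 and WDR75), no comparison of the 9 gave a call in edgeR.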

How the data were processed

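Polyadenylated RNA of 10 NK-92 libraries (5 groups of 2) was extracted with Qiazol and prepared with the TruSeq Standard mRNA kit, per the labels' protocols. The deposited table holds estimated counts per gene symbol, whole numbers that are not normalized. The submitters' processing notes and the design text name fastp 0.21.0 for trimming of the 101 bp read pairs. They name HISAT2 2.2.1 for mapping against hg38, and StringTie 2.1.6 with RefSeq genes for counting. The strand setting is not stated in them.

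From the estimated counts deposited by the authors, edgeR 4.0.16 in R 4.3.3 fitted 1 quasi-likelihood model to all 10 libraries, with group as its single term. Scaling was TMM and the filter was filterByExpr with a minimum count of 10, which left 20125 of 54628 symbols. The fit had 5 residual degrees of freedom and 5.827 prior ones. Adjustment (Benjamini-Hochberg) ran over all genes tested in each of 9 comparisons, with a threshold of 0.05. A standard error is the size of the log2 change over the root of F. The floor for a gene at 0, a count of 3, is 0.0209 to 0.0278 CPM per library and covers counting error only. The lowest level of any member in a library was 37.3 CPM. Replicate numbers did not pair libraries, as the correlations of replicate deviations between groups lay between -0.0521 and 0.0125 over 20125 genes.

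Coordinates and promoters are RefSeq's (GRCh38.p14), and exon overlaps and transcript lengths are GENCODE's. All 60 members may be named. Values in every library are given for the 3 members per role with the smallest p in each comparison of 24 h with untreated cells, and for members called lower or called between the agents. In the other lists the 3 smallest p were taken, and further genes were singled out with their values known. The members and all lists were chosen with earlier results of these data known. The alternatives were scaling by RLE, testing without the filter, a filter of at least 1 CPM in 2 libraries, DESeq2 1.42.0, the replicate number as a block, the compared groups alone, and each library left out in turn. A further one, added after the data were seen, removed each library's trend with GC content and transcript length (known for 16802 of 20125 genes).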

Additional observations from a re-analysis of the deposited data

Results flagged for a closer look

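Members were singled out here because the change at 24 h differed between the agents in edgeR's quasi-likelihood test of DFO against T003. The log2 differences were 0.12 for TAF1D and 0.10 for NPM1, higher with DFO, and -0.17 for POLR1E, -0.11 for UTP4, -0.14 for PES1, -0.11 for NIP7, -0.15 for RRP12 and -0.14 for NOB1, lower with DFO. The 2 libraries of each agent did not overlap for these genes, which is no added support, since the same libraries singled them out. The interaction of agent and time called 0 members in edgeR (16 had an unadjusted p under 0.05, as had 872 of the 5425 equally abundant genes). DESeq2 called 3 members and 188 of all genes for it, and of these members NPM1 and NIP7 are among these 8 genes. Removing the trend with GC content and length ended the calls of TAF1D and NPM1.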

How the results depend on the processing

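The direction of the median member change was the same in the 24 h comparisons under every alternative, and RLE scaling moved no count of members. With the compared groups alone, the genes called were 851 for DFO at 24 h against untreated cells (15 members higher), 1293 for DFO at 24 h against 6 h (19 members higher) and 55 for DFO against T003 at 24 h (0 members called), and were 2 for the agents at 6 h.

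DESeq2 called 522 genes for DFO and 81 for T003 at 6 h against untreated cells, 888 genes and 17 members for DFO against T003 at 24 h, 14 genes at 6 h, and 188 genes and 3 members for the interaction. Without a filter there were 16 genes for DFO at 6 h, 4 members for DFO against T003 at 24 h, 2 genes for the agents at 6 h and 16 for the interaction. The 1 CPM filter gave 446 genes for DFO against T003 at 24 h, 2 at 6 h and 10 for the interaction, and removal of the GC and length trend gave 2 at 6 h and 22 for the interaction.

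With replicate number as a block, which does not pair these libraries, 21 and 37 members were higher with DFO and T003 at 24 h, 2 and 1 genes were called at 6 h, 117 genes and 1 member for DFO against T003 at 24 h, and 1 gene at 6 h.

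Leaving out 1 library gave 431 to 1383 genes and 4 to 27 members for DFO at 24 h against untreated cells, 1084 to 2544 genes and 21 to 40 members for T003, 950 to 1824 genes and 13 to 33 members for DFO at 24 h against 6 h, 1336 to 2739 genes and 24 to 39 members for T003, 14 to 229 genes and 0 to 5 members for DFO against T003 at 24 h, 1 to 11 genes for DFO at 6 h, 1 to 13 for T003 at 6 h, 0 to 4 for the agents at 6 h and 2 to 11 for the interaction. Fewer samples in the fit leave fewer residual degrees of freedom, and no other cause of these shifts was tested. The called members and the median changes of the members were recomputed under the alternatives and counted together. Members lost their call 483 times, and no called member changed direction. Counted as the same were 2166 values, meaning a call kept or a median shifted by less than its spread between replicate libraries. Among these values the label of moved, used for medians, was given 3 times. Counts of genes and of members called were labelled apart, and 84 of them moved while 222 were the same. There, the same means equal to the main count or within 1.5-fold of it. With 2 libraries a group, changes near the SE of a member (median 0.0291) could not be seen.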

Other observations

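Genes of RNA polymerase III, which makes 5S ribosomal RNA and transfer RNAs, were mixed at 24 h. Of 20 tested, 1 rose and 1 fell with DFO and 4 rose and 2 fell with T003. Among genes as abundant as the lowest member, 9.64% rose and 7.61% fell with DFO, and 19.4% and 11.2% with T003. The counts of this list are near or below those shares. Of all genes, 3.43% rose and 3.27% fell with DFO, and 7.1% and 5.44% with T003. POLR3G, an alternative subunit, rose by 0.23 (SE 0.042, adjusted p = 0.00931) with DFO and 0.29 (SE 0.042, adjusted p = 0.00119) with T003, and POLR3A, the largest subunit, by 0.22 (SE 0.033, adjusted p = 0.00155) with T003, with 0.00 for DFO. GTF3C3, a subunit of the factor TFIIIC, fell with both (-0.17, adjusted p = 0.0123, with DFO and -0.34, adjusted p = 0.000102, with T003). These p-values are from edgeR's quasi-likelihood test.

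Noncoding host genes of snoRNAs were called about as rarely as all genes, of which 3.43% were called higher with DFO and 7.1% with T003. With DFO, 3822 of all 20125 genes had an unadjusted p under 0.05 in edgeR, and DESeq2 called 1867 genes. Of 16 tested, 0 were called with DFO in edgeR (5 had an unadjusted p under 0.05, and DESeq2 called 1) and 1, SNHG1, rose with T003 (0.09, SE 0.025, adjusted p = 0.0379 in edgeR). SNHG3, SNHG16 and SNHG17 had 0.14, 0.11 and -0.11 with DFO and -0.01, 0.07 and -0.03 with T003. SNHG12 had 0.08 with DFO and -0.10 with T003, and SNHG29 -0.06 and -0.09, and none of these 5 genes was called against untreated cells by edgeR. SNHG12 was higher with DFO than with T003 at 24 h (0.19, SE 0.032, adjusted p = 0.024 in edgeR).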
